A study of Mus musculus with 9 samples.

Results

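The apolipoprotein L family was followed through 6 listed genes, Apol6, Apol7a, Apol8, Apol9a, Apol9b and Apol10b, out of 55487 genes in the count table. The 6 were chosen by their counts in these libraries with and without interferon gamma (IFNγ), so their difference between cells with and without that cytokine is described here and not tested. The table holds 9 further genes of the name, 8 with a numbered Apol symbol and Apold1, which serve as the rest of the family. All libraries came from B16F10, an established mouse melanoma line. Cells were kept for 6 h in 1 of 3 conditions. They received IFNγ at 50 ng/mL with FK866 at 50 nM, or IFNγ at 50 ng/mL, or Media alone. FK866 blocks NAMPT, an enzyme that recycles nicotinamide into NAD. The protocol speaks of IFNγ from mouse or human and gives the catalogue number of the mouse protein. No group received FK866 without IFNγ. Each group has 3 libraries, titled Control 3, Control 4 and Control 5 in every group, and what Control and its number stand for is not stated. Separate cultures are not stated either, so p-values measure the spread between these libraries, which may be technical.

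Apolipoprotein L proteins carry an amphipathic, membrane-active region and, unlike the plasma apolipoproteins after which they are named, most of them stay inside the cell. In human, APOL1 is the secreted member that kills trypanosomes, and APOL3 acts on bacterial membranes in cells exposed to IFNγ. IFNγ binds its receptor and activates the kinases JAK1 and JAK2, which pass the signal to transcription factors in the nucleus. Gamma-activated sites (GAS) and interferon-stimulated response elements (ISRE) are the DNA elements they use, and IRF1 and complexes with IRF9 bind ISREs. The mouse genes expanded separately from the human ones, so equal numbers in the names need not mean equal roles.

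Libraries held 15317003 to 18466972 counts. All 8 melanocyte lineage markers (Mitf, Sox10, Tyr, Tyrp1, Dct, Pmel, Mlana and Gpnmb) were present, with summed levels of 22500 to 26300 CPM (counts per 1000000 library counts) with IFNγ plus FK866, 23200 to 26000 with IFNγ and 26600 to 28000 in Media. The marker sums were lower in the IFNγ groups, opposite in direction to the Apol genes that were higher there, and the markers' part in the results was not tested. Of 6 leukocyte markers, at least 4 were at 0 in every group, and the list summed to 2.93 to 11.7 CPM over all libraries, carried by Cd68. Endothelial markers summed to at most 0.995 CPM, both keratinocyte markers were at 0, liver markers reached at most 0.596 CPM, and fibroblast markers reached 3.98 to 7.63 CPM through Pdgfrb. Fewer cells expressing a gene and less of its RNA per cell cannot be told apart in these bulk libraries.

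The 6 genes lie in the Apol cluster of chromosome 15. By the GENCODE M21 annotation of GRCm38 the cluster runs from the start of Apol6 to the end of Apol8, chr15:77044729-77757003, a span of 712.3 kb with 13 Apol genes, and all 6 are annotated as protein coding. Apol6 (ENSMUSG00000033576, chr15:77044729-77057106, plus strand) stands apart at one edge, 331.1 kb from Apol7a. Apol7a (ENSMUSG00000010601, chr15:77388219-77399110) and Apol9a (ENSMUSG00000057346, chr15:77403789-77411135) follow each other on the minus strand. Apol10b (ENSMUSG00000050014, chr15:77583819-77596125) lies further along on the minus strand. Apol9b (ENSMUSG00000068246, chr15:77729039-77736382, plus strand) and Apol8 (ENSMUSG00000056656, chr15:77747798-77757003, minus strand) close the cluster at the other edge.

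Promoter sequence is shown for 3 members that differ in their counts. Interferon elements near the start site are among the sequence features through which the pathway can act. Sequences are those of RefSeq on GRCm38.p6, 300 bases around the annotated start, given on the gene's own strand from 5′ to 3′. Of the 6 members, 5 matched the promoter table, and Apol6 is named only. Capitals mark matches to the ISRE core, searched on both strands as GAAA, any 2 bases, then GAAA. Every match shown reads on the strand opposite to the gene. Apol9b is from chr15:77728822-77729121 (plus strand), Apol10b from chr15:77596076-77596375 (minus strand) and Apol8 from chr15:77756961-77757260 (minus strand).
Apol9b: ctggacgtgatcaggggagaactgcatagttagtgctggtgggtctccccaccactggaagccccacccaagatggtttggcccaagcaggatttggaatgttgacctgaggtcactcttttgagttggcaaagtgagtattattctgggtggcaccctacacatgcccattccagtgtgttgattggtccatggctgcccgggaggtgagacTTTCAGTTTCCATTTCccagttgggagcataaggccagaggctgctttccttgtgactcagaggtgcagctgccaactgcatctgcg
Apol10b: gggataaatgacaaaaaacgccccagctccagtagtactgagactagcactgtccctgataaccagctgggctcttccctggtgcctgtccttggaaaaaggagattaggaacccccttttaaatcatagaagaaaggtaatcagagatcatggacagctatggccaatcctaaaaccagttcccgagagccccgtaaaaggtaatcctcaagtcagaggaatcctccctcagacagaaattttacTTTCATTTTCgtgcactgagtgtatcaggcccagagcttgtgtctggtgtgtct
Apol8: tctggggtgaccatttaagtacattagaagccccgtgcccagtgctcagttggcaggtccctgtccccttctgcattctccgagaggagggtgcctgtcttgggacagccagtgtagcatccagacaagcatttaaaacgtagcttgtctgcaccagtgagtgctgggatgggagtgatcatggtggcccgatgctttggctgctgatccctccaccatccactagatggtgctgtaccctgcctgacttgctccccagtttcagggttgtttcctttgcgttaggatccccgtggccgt

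The core was found near the start of Apol9a, Apol9b and Apol10b and was not found in these windows for Apol8 and Apol7a. The share of all promoters in the table that hold it is 3.44% of 32851. Apol9a and Apol9b have 2 annotated promoters each, and each holds the same 2 overlapping matches, TTTCAGTTTC and TTTCCATTTC. With the first transcribed base at position 0, these lie at -59 to -44 or -105 to -90 in Apol9a, depending on the start, and at -37 to -22 or -86 to -71 in Apol9b. The Apol10b match, TTTCATTTTC, lies across the start itself, at -4 to 5. The GAS core TTCNNNGAA, searched on both strands, was in 8.3% of all promoters and in none of the 5 members.

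The windows around the ISRE matches are set side by side because the same core also stands before Apol genes that had no counts in any library. Of 11 genes of the cluster with a promoter in the table, 8 hold a match, and 5 of these 8, Apol10a, Apol11a, Apol11b, Apol7c and Apol7e, had 0 counts in all 9 libraries. Each line gives the match or matches in capitals with flanking bases.
Apol9a: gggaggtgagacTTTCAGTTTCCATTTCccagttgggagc
Apol9b: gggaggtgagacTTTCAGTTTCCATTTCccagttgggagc
Apol10b: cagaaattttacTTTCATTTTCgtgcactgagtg
Apol10a: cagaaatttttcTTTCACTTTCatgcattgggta
Apol11a: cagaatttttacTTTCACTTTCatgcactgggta
Apol11b: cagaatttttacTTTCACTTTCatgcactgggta
Apol7c: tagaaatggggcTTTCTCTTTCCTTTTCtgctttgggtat
Apol7e: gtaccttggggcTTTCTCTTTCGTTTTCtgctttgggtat

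The Apol9a and Apol9b windows are the same, and over 281 aligned bases their promoters were 100% identical. The Apol10b window is close to those of Apol10a, Apol11a and Apol11b, from which no read was counted. A match describes letters in a window, and these windows do not separate the genes with counts from those without.

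**Figure D1:**
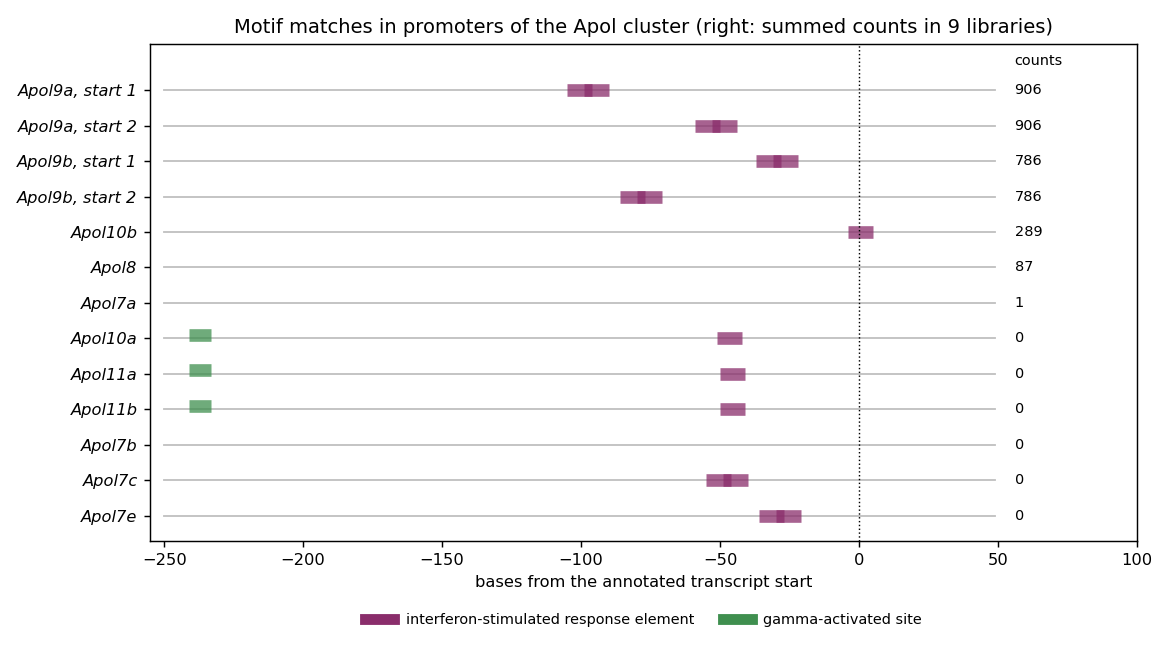
Position of each ISRE or GAS match in the promoters of the Apol cluster, with bases from the annotated start on the x axis, 1 row per promoter and the gene's summed counts at the right. Apol9a, Apol9b and Apol10b carry ISRE matches near the start, as do 5 genes with 0 counts in every library, while Apol8 and Apol7a carry none; GAS matches stand before Apol10a, Apol11a and Apol11b only.

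All 6 members had at least 1 count, but they differed widely in how firmly they were detected. Over the 9 libraries Apol6 had 4736 counts, Apol9a 906, Apol9b 786, Apol10b 289 and Apol8 87. Apol7a had 1 count in all, in the IFNγ library Control 3, and was the only member that did not pass the filter on low counts. The remaining 5 entered the tests among 15237 genes. Intervals and limits at 0 counts given here cover counting error only. CPM values below are scaled by the trimmed mean of M-values (TMM) and, within a group, are given for Control 3, 4 and 5.

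Apol6, whose human counterpart is described as a pro-apoptotic protein of the BH3-only kind, was the most abundant member. With IFNγ plus FK866 it had 1165, 896 and 433 counts, or 65.1, 46.6 and 28.4 CPM. With IFNγ it had 998, 771 and 473 counts, or 65.7, 47 and 28 CPM. In Media it had 0 counts in all 3 libraries, which allows a group level of up to 0.0589 CPM by a floor of 3 counts over the group. All 6 IFNγ-treated libraries lay far above Media, and in both treated groups Control 3 was highest and Control 5 lowest. Against that floor the level was at least 808-fold higher with IFNγ plus FK866 and at least 785-fold higher with IFNγ. The exons of Apol6 share 64 bases with Mb, which encodes myoglobin on the opposite strand. Mb itself had 1 count with IFNγ plus FK866, 8 with IFNγ and 0 in Media, and the strand setting of the counting was not given in the sources used here.

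Apol9a and Apol9b are closely related mouse genes whose products are known as interferon-inducible proteins with antiviral activity. With IFNγ plus FK866 Apol9a had 122, 208 and 148 counts, or 6.81, 10.8 and 9.69 CPM. With IFNγ it had 82, 176 and 167 counts, or 5.4, 10.7 and 9.89 CPM, and in Media 1, 2 and 0 counts. The treated libraries did not overlap with Media, and Control 3 was the lowest in both treated groups. On 3 Media counts in all, the ratio to Media was 155 with IFNγ plus FK866 (95% counting interval 52.7 to 754) and 149 with IFNγ (50.6 to 725). Without the Media library Control 4, which holds 2 of these counts, the fitted log2 fold change was 7.9 with IFNγ plus FK866 and 7.83 with IFNγ, where the fits with it gave 7.11 with IFNγ plus FK866 and 7.04 with IFNγ.

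Apol9b had 107, 151 and 155 counts with IFNγ plus FK866, or 5.98, 7.85 and 10.1 CPM. With IFNγ it had 86, 136 and 150 counts, or 5.66, 8.28 and 8.88 CPM, and in Media 0, 1 and 0 counts. Control 3 was again lowest in both treated groups and no treated library overlapped with Media. The ratio to Media, which rests on 1 count in the Media library Control 4, was 401 with IFNγ plus FK866 (71.6 to 15900) and 391 with IFNγ (69.7 to 15500). Without that library the fitted log2 fold change was 10.06 with IFNγ plus FK866, against 8.21 with it, and 9.99 with IFNγ, against 8.14 with it.

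Reads of Apol9a and Apol9b cannot be fully separated. Of the 75-base stretches in annotated Apol9b transcripts, 43.3% (809 of 1869) also occur in Apol9a, while the same 809 are 13.8% of the 5883 stretches of Apol9a. For 50-base stretches the shares were 52.3% of Apol9b and 16.5% of Apol9a. The sources used here give neither the read length nor the treatment of reads with several matches, so the split between both genes is uncertain. The Apol9a to Apol9b ratio of CPM ran from 0.955 to 1.38 with IFNγ plus FK866 and from 0.953 to 1.29 with IFNγ. Their sum, which does not depend on how shared reads were split but would depend on whether they were dropped, was 12.8, 18.7 and 19.8 CPM with IFNγ plus FK866 and 11.1, 19 and 18.8 CPM with IFNγ.

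Apol10b had 24, 57 and 60 counts with IFNγ plus FK866, or 1.34, 2.96 and 3.93 CPM. With IFNγ it had 41, 61 and 46 counts, or 2.7, 3.72 and 2.72 CPM, and in Media it had 0 counts in each library. Both treated groups stood clear of Media and overlapped with each other. Against the floor, the level was at least 45.7-fold higher with IFNγ plus FK866 and at least 51.8-fold higher with IFNγ.

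Apol8 behaved otherwise among the members that passed the filter, with a few counts in every library of every group. It had 13, 12 and 7 counts with IFNγ plus FK866, 15, 7 and 8 with IFNγ, and 12, 3 and 10 in Media. Its level was 0.726, 0.624 and 0.458 CPM with IFNγ plus FK866, 0.988, 0.426 and 0.474 CPM with IFNγ, and 0.753, 0.164 and 0.597 CPM in Media. The 3 groups overlapped. The ratio to Media was 1.24 with IFNγ plus FK866 (0.714 to 2.19) and 1.26 with IFNγ (0.717 to 2.24), so counting error alone leaves room for a fall as well as for more than a doubling.

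**Figure D2:**
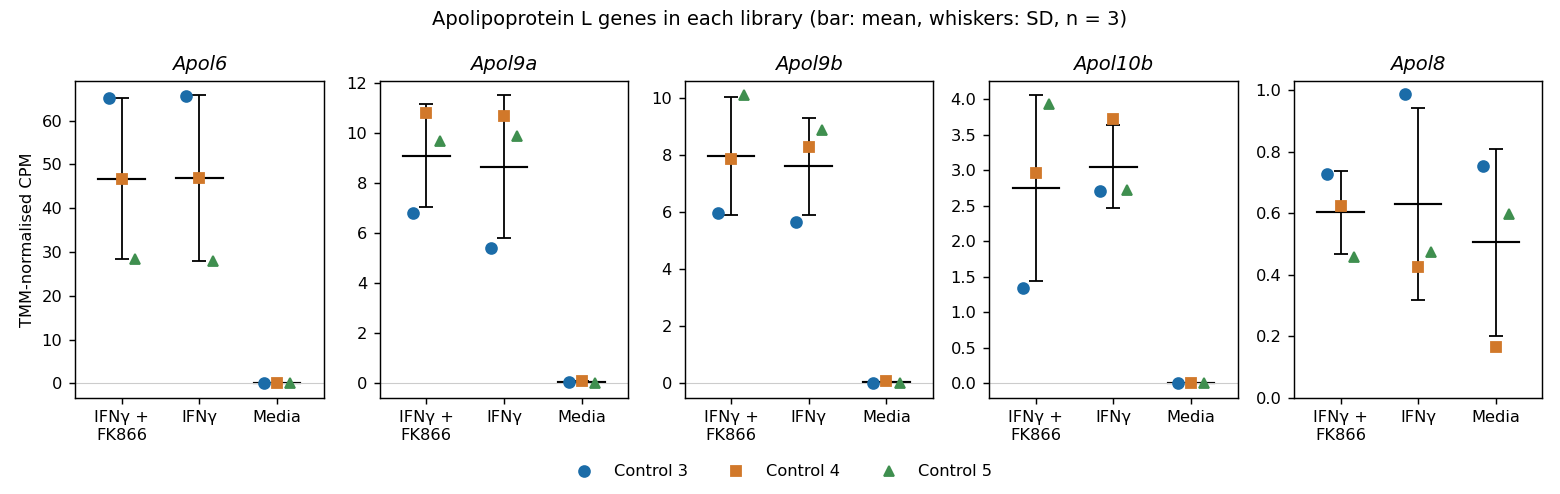
TMM-scaled CPM (y axis) of the 5 members that passed the filter, in each library, with IFNγ plus FK866 left, IFNγ in the middle and Media right; points are libraries by Control number, bars are means and whiskers SD (n = 3). Apol6, Apol9a, Apol9b and Apol10b are at or near 0 in Media, and Apol8 lies below 1 CPM in all groups.

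Apol6, Apol9a, Apol9b and Apol10b were thus the 4 members whose IFNγ libraries did not overlap with Media. Over all genes tested, 2.8% were called higher with IFNγ than in Media by the quasi-likelihood F test of edgeR at an adjusted p below 0.05, and 2.76% with IFNγ plus FK866. Nothing is read from that share for these 4, because the contrast took part in choosing them. Both comparisons use the same Media libraries.

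Averaged over libraries, Apol6 reached 46.7 ± 18.4 CPM with IFNγ plus FK866 and 46.9 ± 18.8 CPM with IFNγ (SD, n = 3 each), against 0 in Media. Apol9a averaged 9.11 ± 2.06 CPM with IFNγ plus FK866, 8.67 ± 2.86 with IFNγ and 0.0574 ± 0.055 in Media. Levels between genes were compared per kb of exon. Apol6 was highest, with 10.4 ± 4.08 CPM per kb with IFNγ plus FK866 and 10.4 ± 4.19 with IFNγ. Apol9b came next, at 4.38 ± 1.13 CPM per kb with IFNγ plus FK866 and 4.18 ± 0.94 with IFNγ, and its libraries did not overlap with those of Apol6 in either group. Apol9a, at 1.53 ± 0.346 CPM per kb with IFNγ plus FK866 and 1.46 ± 0.48 with IFNγ, and Apol10b, at 1.18 ± 0.563 with IFNγ plus FK866 and 1.31 ± 0.251 with IFNγ, overlapped and cannot be put in order. Apol8 was lowest of the members that passed the filter, at 0.203 ± 0.0457 CPM per kb with IFNγ plus FK866, 0.212 ± 0.105 with IFNγ and 0.17 ± 0.103 in Media.

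The place of Apol9a depends on the length used. Its annotated exons together cover 5953 bases, against 1821 for Apol9b, while the longest coding transcripts have 1530 and 1573 bases. Per kb of the longest coding transcript, a length added after the data were seen, Apol9a had 5.95 ± 1.35 CPM with IFNγ plus FK866 and 5.66 ± 1.87 with IFNγ, and Apol9b had 5.07 ± 1.31 with IFNγ plus FK866 and 4.84 ± 1.09 with IFNγ. On that scale the 2 genes overlapped with each other, and Apol9a no longer overlapped with Apol10b. Apol6 remained highest, at 20.2 ± 7.93 CPM per kb with IFNγ plus FK866 and 20.3 ± 8.15 with IFNγ.

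**Figure D3:**
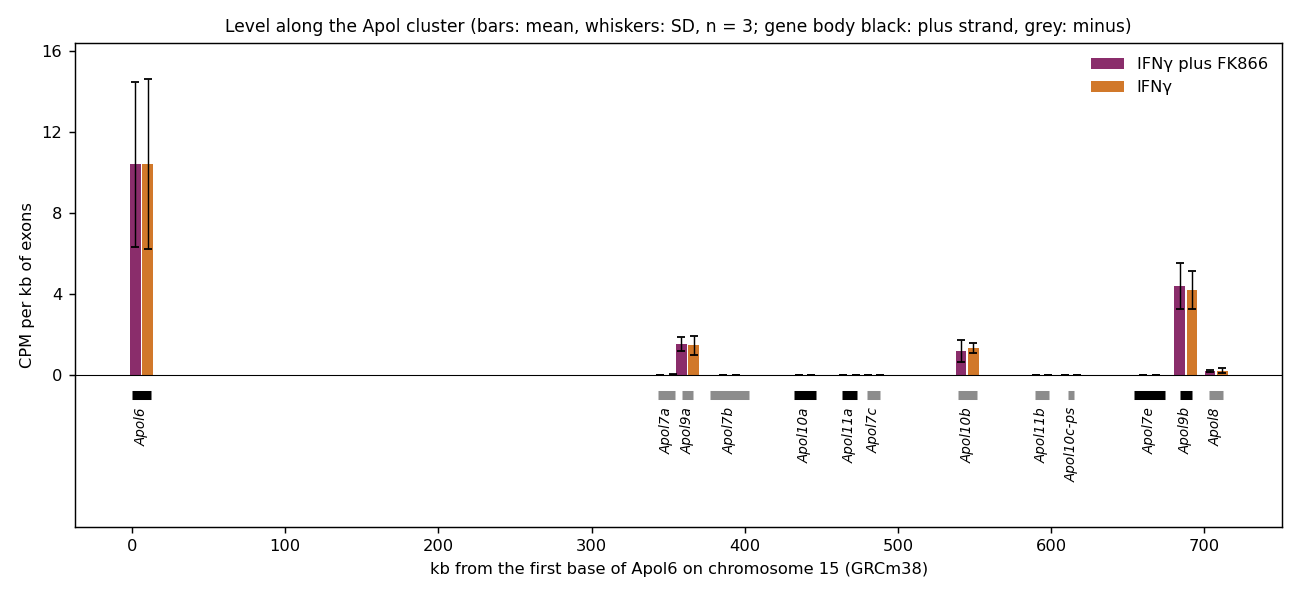
Mean CPM per kb of exon (y axis, whiskers SD, n = 3) at each Apol gene along chromosome 15, with distance in kb from the first base of Apol6 on the x axis, for IFNγ plus FK866 (left bar) and IFNγ (right bar); blocks under the axis are gene bodies. Apol6 at the left edge has the highest bars, Apol9b comes next, and the 7 other Apol genes of the cluster stand at 0.

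The rest of the family added little. Apol7b, Apol7c, Apol7e, Apol10a, Apol10c-ps, Apol11a and Apol11b had 0 counts in every library, so each is limited to the same 0.0589 CPM in Media as the members at 0. Apol7d, annotated as an antisense gene on chromosome 1 whose exons share 292 bases with Fn1 on the opposite strand, had 99 counts over all libraries. Its level was 0.945 ± 0.384 CPM with IFNγ plus FK866, 0.577 ± 0.0832 with IFNγ and 0.388 ± 0.18 in Media. It was called in none of the 3 treatment comparisons, with or without the Control number as a block. Within those 292 bases, reads of the matrix gene Fn1 cannot be told apart from those of Apol7d without a stated strand. Apold1, a gene on chromosome 6 known as an early response gene of endothelium, had 72.5 ± 2.28 CPM with IFNγ plus FK866, 80.5 ± 8.42 with IFNγ and 101 ± 10.7 in Media.

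The log2 fold change of Apold1 was -0.48 with IFNγ plus FK866 (adjusted p = 0.0511, edgeR) and -0.33 with IFNγ (adjusted p = 0.239), and neither was called. With the Control number as a block, both were called lower, at -0.47 with IFNγ plus FK866 (adjusted p = 1.66e-05, edgeR, 7.61% of genes called lower) and at an adjusted p of 0.00105 with IFNγ (edgeR, 6.14% called lower).

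FK866 on top of IFNγ was tested next, in a contrast in which the members stand well above 0 on both sides except for Apol8 and Apol7a. None of the 5 members tested was called, and 0% of all genes tested were called in that contrast (edgeR, adjusted p below 0.05). Over all genes 88 had an unadjusted p under 0.05, none of them a member, and DESeq2 called 0 genes as well. The members' unadjusted p ran from 0.721 to 0.989. This fit leaves the differences between Control numbers in its spread, and chance alone would put more than 88 of 15237 genes under 0.05. Its lack of calls is therefore weak evidence that FK866 changed nothing. For Apol6 the log2 fold change of IFNγ plus FK866 over IFNγ was -0.01 (standard error 0.37, 95% interval -0.86 to 0.85, edgeR adjusted p = 1).

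The Control number pairs the libraries, and within a number the 2 treated libraries were close for Apol6. The log2 differences of IFNγ plus FK866 minus IFNγ were -0.01 in Control 3, -0.01 in Control 4 and 0.02 in Control 5. With the number as a block the change of Apol6 was 0 (standard error 0.08, interval -0.16 to 0.16, edgeR adjusted p = 0.997). FK866 changes of Apol6 beyond 0.16 on the log2 scale in either direction are outside this interval. Over all genes the block called 3, or 0.0197%, and none of them was a member. With the block 573 genes had an unadjusted p under 0.05 (edgeR), against 88 without it. Chance alone would put more than 573 of 15237 genes under 0.05, so the blocked fit shows no excess of small p either.

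For Apol9a and Apol9b the blocked intervals were wider. Apol9a had within-number differences of 0.34, 0.01 and -0.03 and a blocked log2 fold change of 0.09 (interval -0.27 to 0.46). Apol9b had 0.08, -0.08 and 0.19 and a blocked change of 0.06 (interval -0.31 to 0.44). The intervals of Apol10b and Apol8 were wider still. Apol10b had differences of -1.01, -0.33 and 0.53, which disagree in sign, and a blocked change of -0.22 (interval -0.88 to 0.43). Apol8 had -0.44, 0.55 and -0.05, and its blocked interval, -1 to 1.01, leaves room for a doubling or a halving. Adjusted p with the block ran from 0.987 to 0.999 over the 5 members (edgeR).

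**Figure D4:**
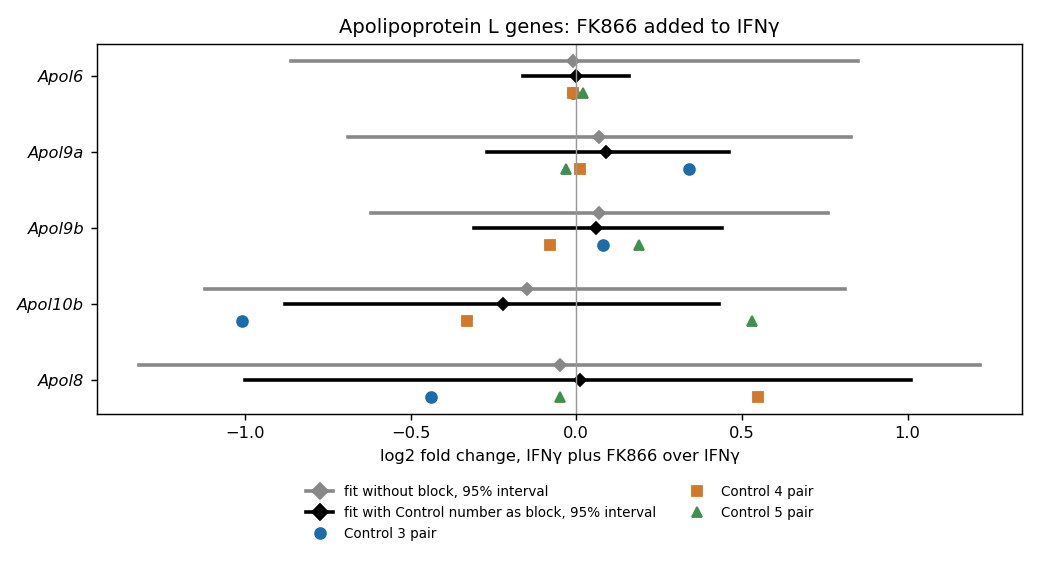
Log2 fold change of IFNγ plus FK866 over IFNγ (x axis) for the 5 members tested, with 95% intervals of the fits with and without the Control number as a block and the 3 within-number differences as points. All intervals include 0, and that of Apol6 with the block is the narrowest, from -0.16 to 0.16.

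Far more genes were called between Control numbers than between IFNγ with and without FK866. A test of the number with the treatment group as a term asked whether the members take part. By this edgeR F test with 2 degrees of freedom, 51.8% of all genes tested were called at an adjusted p below 0.05, and 3 of the 5 members, namely Apol6, Apol9a and Apol9b. That share is close to the background. Adjusted p was 4.37e-08 for Apol6, 0.00835 for Apol9a, 0.0316 for Apol9b, 0.181 for Apol10b and 0.214 for Apol8 (edgeR).

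Apol6 was higher in Control 3 than in Control 5, whereas Apol9a and Apol9b were lower. The difference for Apol6 was 1.21 on the log2 scale (standard error 0.09, edgeR adjusted p = 1.44e-08), in a contrast that called 42% of genes and 21.1% higher. It was also higher in Control 3 than in Control 4 by 0.48 (adjusted p = 0.000439, edgeR, 31% of genes called) and in Control 4 than in Control 5 by 0.73 (adjusted p = 1.6e-05, edgeR, 31.1% called). The call for Control 3 over Control 5 held without each of the 9 libraries in turn, at 1.21 to 1.23. The information comes from the treated libraries, since Apol6 is at 0 in Media. For Control 3 over Control 5, leaving out a Media or a Control 4 library could hardly move the value.

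Apol9a was lower in Control 3 than in Control 4, by a log2 fold change of -0.82 (standard error 0.21, edgeR adjusted p = 0.0058), and lower than in Control 5, by -0.66 (standard error 0.22, adjusted p = 0.0189). Apol9b was lower in Control 3 than in Control 5, at -0.7 (standard error 0.22, edgeR adjusted p = 0.0138), while its difference from Control 4, -0.49, was not called (adjusted p = 0.105). Both calls for Control 3 over Control 5 were lost without some single libraries, while the fold kept its sign. For Apol9a it was -0.72 without IFNγ plus FK866 Control 5 (edgeR adjusted p = 0.0597), -0.48 without IFNγ Control 3 (0.228) and -0.52 without IFNγ Control 5 (0.207), at standard errors of 0.29, 0.29 and 0.3. For Apol9b it was -0.72 without IFNγ plus FK866 Control 3 (edgeR adjusted p = 0.0536), -0.59 without IFNγ plus FK866 Control 5 (0.137), -0.7 without IFNγ Control 3 (0.0965) and -0.77 without IFNγ Control 5 (0.0647), at standard errors of 0.29 to 0.31.

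In a fit restricted to the 6 libraries that received IFNγ, a choice made after the data were seen, the Control 3 over Control 5 values were 1.21 for Apol6, -0.68 for Apol9a (edgeR adjusted p = 0.00279) and -0.71 for Apol9b (edgeR adjusted p = 0.00271). Apol10b, at -0.76 (adjusted p = 0.132, edgeR), and Apol8, at 0.66 (adjusted p = 0.311), were not called. Apol10b passed the threshold only without the IFNγ library Control 5, at -1.31 (adjusted p = 0.0482, edgeR).

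**Figure D5:**
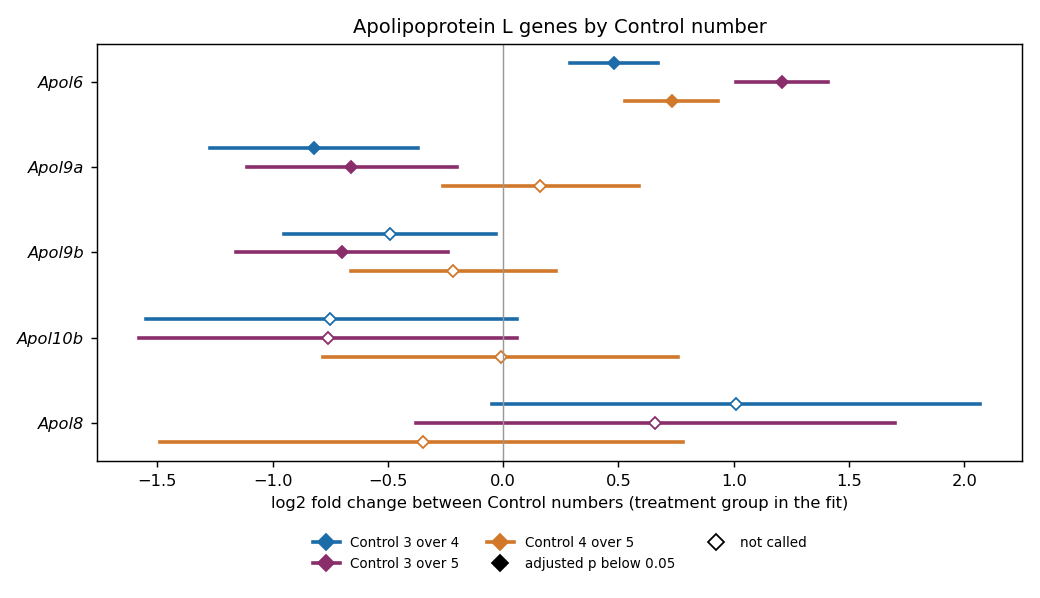
Log2 fold change between Control numbers (x axis, lines 95% intervals) for the 5 members tested, with the treatment group as a term; filled symbols have an edgeR adjusted p below 0.05. Apol6 lies to the right of 0 in all 3 contrasts, and Apol9a and Apol9b lie to the left for Control 3 over Control 5.

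The share of the members' counts that fell on Apol6 differed between numbers. Apol6 made up 81.4%, 67.7% and 53.9% of the members' counts in Control 3, 4 and 5 with IFNγ plus FK866, and 81.6%, 67% and 56% with IFNγ. The ratio of Apol6 to Apol9b counts was 10.9, 5.93 and 2.79 with IFNγ plus FK866 and 11.6, 5.67 and 3.15 with IFNγ. Summed over the 6 members, the level was 79.9, 68.9 and 52.6 CPM with IFNγ plus FK866 and 80.5, 70.1 and 50 CPM with IFNγ. The Apol6 share and its ratio to Apol9b lay nearer to those of the other treated library of the same number than to those of the other libraries of the same group. This did not hold for every ratio. Apol6 over Apol10b was 48.5, 15.7 and 7.22 with IFNγ plus FK866 and 24.3, 12.6 and 10.3 with IFNγ, and the Apol10b counts in Control 3 were 24 with IFNγ plus FK866 and 41 with IFNγ.

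Of the IFNγ signalling list, made of the ligand, receptor chains, kinases, transcription factors and SOCS inhibitors, 14 of 15 genes were tested and Ifng itself had 0 counts. With IFNγ 11 of the 14 rose relative to Media and 0 fell, at a background of 3.3% of genes called, and the list's median log2 fold change was 3.89 against -0.01 over all genes. Irf9, part of the complex that binds ISREs, had 57.2 ± 4.5 CPM with IFNγ plus FK866, 56.7 ± 9.69 with IFNγ and 4.21 ± 1.58 in Media (log2 fold change 3.75 with IFNγ, edgeR adjusted p = 2.41e-05). Socs1, a feedback inhibitor of the kinases, had a log2 fold change of 6.44 (standard error 0.14, edgeR adjusted p = 1.13e-08), and Jak2 one of 0.86 (edgeR adjusted p = 0.000548). With the block 12 rose and 1 fell, at a background of 14.3% of genes called and 6.14% called lower. The added calls were Jak1 at 0.42 (edgeR adjusted p = 0.000119) and the receptor chain gene Ifngr2 at -0.34 (edgeR adjusted p = 0.00174). With FK866 on top of IFNγ, 0 of the 14 were called, by the fit with or without the block.

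Between Control 3 and Control 5, where Apol6 differed by 1.21, the values were 0.11 for Irf1 and 0.43 for Irf9 (edgeR adjusted p = 0.318 for Irf1 and 0.00214 for Irf9). Larger differences were called for Socs3, at 0.77 (edgeR adjusted p = 2.55e-06), and Stat2, at 0.65 (edgeR adjusted p = 6.53e-06). Irf2 was called lower, at -0.27 (edgeR adjusted p = 0.00555). In that contrast 6 of the 14 signalling genes were higher and 1 lower, beside 21.1% of all genes higher and 20.8% lower. Irf1 had 747 ± 42.4 CPM with IFNγ plus FK866, 787 ± 34.2 with IFNγ and 17.3 ± 3.31 in Media.

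The neighbourhood of the cluster was read from the same fit. It holds 27 other annotated genes, 21 inside and 3 protein-coding genes on each side, of which 9 were tested. With IFNγ, 1 of the 9 was called relative to Media, beside a background of 3.3%. This gene, 1110038F14Rik, which lies outside the cluster on the Apol6 side, had 66.4 ± 2.69 CPM with IFNγ plus FK866, 64 ± 9.77 with IFNγ and 22.3 ± 1.51 in Media (log2 fold change 1.52 with IFNγ, standard error 0.13, edgeR adjusted p = 7.01e-05). With the block Rbfox2, a splicing factor gene in the gap between Apol6 and Apol7a, was called too, at 0.43 (edgeR adjusted p = 7.91e-05, at 14.3% of genes called), against 0.44 without it (adjusted p = 0.319). Myh9, which encodes a non-muscle myosin heavy chain, and Txn2, a mitochondrial thioredoxin, had log2 values of 0.01 and -0.04 with IFNγ relative to Media, neither of them called. With FK866 on top of IFNγ, 0 of the 9 neighbours were called.

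The genes most like each member in their pattern over the 9 libraries were sought among 10914 protein-coding genes outside the family, by the root mean square distance of log2(CPM + 0.1) after centring. The 9 libraries share their depth and treatment groups, so these distances are a description. Nearest to Apol6 were Gbp7 at 0.4, Irgm2 at 0.44 and Gbp2 at 0.46. Apol9a was nearest to Tnfsf10 at 0.35, Irf1 at 0.38 and Irgm1 at 0.4, and Apol9b to Irgm1 at 0.23, Prph at 0.33 and Socs1 at 0.34. Apol10b was near Cdc42ep2 and Tcf7, at 0.4 each. Among the members, Apol9a and Apol9b, which share sequence, were 0.25 apart, and Apol10b was 0.64 from Apol9a and 0.67 from Apol9b. Apol6 was 1.45 from Apol9b, 1.55 from Apol9a and 2 from Apol10b. Apol6 and Apol10b were at 0 in Media, so their Media values are set by the added 0.1. In Media, Apol9a averaged 0.0574 CPM and Apol9b 0.0183 CPM, both below that constant. The distances of these members, to each other and to nearest genes, therefore depend on that constant and on the level with IFNγ.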

How the data were processed

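RNA from B16F10 cells was measured in 9 libraries, 3 in each of 3 treatment groups, and is treated as bulk sequencing: the series text speaks of a droplet platform, but each library has a single column. The authors deposited raw counts per Ensembl gene. Per the submitters' processing notes, the tools were cutadapt 1.16, STAR 2.7.6a, featureCounts 1.6.3 and DESeq2 1.30.1, in no stated order, and the builds mm10 and GRCm38. The sources used here give no annotation release, strand setting, or rule for multiple mapping or duplicates. Of 55487 genes, 55141 were given a symbol, and 28707 had 0 counts in every library.

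The counts were fitted in R 4.3.3 with edgeR 4.0.16 (TMM, filterByExpr with a minimum count of 10, quasi-likelihood F test, 9 libraries in 1 fit of group means), with Benjamini-Hochberg adjustment over the 15237 genes that passed (99.89% of all counts). Calls are at an adjusted p below 0.05. The fit was also run on simulated data, but no outcome of that run is given here. It is therefore no evidence on how the fit behaves under the spread between these libraries. Replicates of a group differed well beyond sampling noise (chi-square statistic over its degrees of freedom 21.59 to 37.22), so none were merged. The number in the titles was taken to pair the libraries because libraries of equal number deviated together from their group means (r of 0.625 to 0.783 in 9 pairs). Libraries of different number had r of -0.533 to -0.156 in 18 pairs. Deviations from a group mean sum to 0, so these lean negative once the 9 are positive and are no separate evidence. The fit with the number as a block, which the pairing calls for, is reported beside the main fit as an alternative. DESeq2 1.42.0, other scalings, no filter and leaving out each library are further alternatives.

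Members and lists were chosen with earlier results of these data known. Named are the 6 members, the rest of the family, Irf1, Irf9 and neighbours called, and the 3 protein-coding genes nearest in pattern to each member with a mean of at least 1 CPM; 1 gene under this rule is not reported here. Outside this rule, Mb, Fn1, Myh9 and Txn2 were named after their values were seen. So were Jak1, Jak2, Stat2, Irf2, Ifngr2, Socs1 and Socs3 in the signalling list, and the marker genes were named as markers. Protein sequences were not used here.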

Additional observations from a re-analysis of the deposited data

How the results depend on the processing

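With the replicate block, which the paired Control numbers call for, the genes called rose to 2459 for IFNγ plus FK866 against Media and 2173 for IFNγ against Media, to 3 for IFNγ plus FK866 against IFNγ (1 by DESeq2 with the block, added after seeing the data), and to 2 for the cluster's neighbours. DESeq2 without the block gave 775 for IFNγ plus FK866 and 757 for IFNγ against Media, and leaving out 1 library gave 322 to 479 for IFNγ plus FK866 and 314 to 487 for IFNγ. No member was called for FK866 on top of IFNγ under any alternative run, and log2 values so near 0 changed sign: Apol6 to 0.03 with library totals alone, Apol8 to 0.01 with the block and 0.05 by DESeq2 with the block. Leaving out 1 library, which breaks a pair, gave -0.32 to 0.32 for Apol6, -0.26 to 0.42 for Apol8, -0.18 to 0.25 for Apol9a, -0.14 to 0.24 for Apol9b and -0.5 to 0.18 for Apol10b. Apol8 against Media ran from -0.15 to 0.67 with IFNγ plus FK866 and from -0.15 to 0.72 with IFNγ. For the Control number, 1 to 3 members were called when 1 library was left out, with 1, Apol6, left without the IFNγ library Control 3. Those fits called 6536 to 7964 genes in all, so these counts do not set the members apart from other genes. Apol9b was not called without any 1 of the 6 treated libraries (edgeR adjusted p 0.0515 to 0.182), nor by DESeq2 (adjusted p = 0.095). The causes were not tested. Counts are lowest for Apol7a, Apol8 and Apol10b among the members, and the block changed no call on a member in the treatment comparisons.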
